A study of Rattus norvegicus with 6 samples.

Results

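The genes described here encode 10 small secreted or membrane-bound attractants of leukocytes, namely 9 CXC chemokines and fractalkine (Cx3cl1), in the aorta of young rats. They were taken by name, 1 row of the array for each, from the rows that the array annotation gives exactly 1 gene symbol. All 10 had such a row, out of 14324 genes measured this way. The tissue was the aorta of male Fisher 344 rats aged 1 to 2 months. In the day 0 group the RNA came from freshly isolated aortic rings. In the day 1 group it came from rings kept for 1 day in a collagen gel under serum-free EBM medium. Each group held 3 arrays labelled as biological replicates, and each array carried RNA pooled from 4 to 6 rings or ring cultures. Both groups were cut into rings. Time since cutting, the gel, the medium and time in culture differ together between the groups and cannot be told apart. Values are log2 expression values, so that a difference of 1 is a 2-fold change. A change is the day 1 mean less the day 0 mean, each over 3 arrays, and is followed by ± its standard error. The adjusted p comes from limma, with all 14324 genes in the adjustment.

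Chemokines guide leukocytes by binding G protein-coupled receptors and by sitting on the heparan sulfate of cell surfaces. The CXC ligands with an ELR sequence before their first cysteine, such as Cxcl1 and Cxcl2, act on Cxcr2 and call neutrophils. Cxcl9, Cxcl10 and Cxcl11 lack it, are induced by interferons and act on Cxcr3 of T and NK cells. Cxcl12, Cxcl13 and Cxcl14 are made without inflammation in many tissues: Cxcl12 acts on Cxcr4, Cxcl13 on Cxcr5 of B cells. Cxcl16 and Cx3cl1 are made as transmembrane proteins on a mucin stalk, which proteases can shed, and act on Cxcr6 and Cx3cr1.

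After 1 day of culture 9 of the 10 ligands were higher, and Cxcl14 did not pass the test. The rises ran from 1.44-fold for Cxcl9 to 34.9-fold for Cxcl13, the ligand that attracts B cells, and the next largest was that of Cx3cl1, at 14.6-fold. An adjusted p under 0.05 was reached by 48.3% of all genes, with 27.6% higher and 20.7% lower on day 1, so a passing test alone is common in this comparison. Among the 10 ligands 8 passed and rose by 2-fold or more, as did 4.13% of all genes. The arrays of the 2 days did not overlap for 9 of the 10 ligands and for 56.9% of all genes. The median log2 change was 1.39 over the 10 ligands and -0.01 over all genes. The ligand classes overlapped in the size of their changes, which ran from 1.03 to 1.39 for the neutrophil ligands, 0.52 to 2.52 for the interferon-type, -0.15 to 5.13 for the homeostatic and 1.03 to 3.87 for the membrane-bound ligands.

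**Figure D1:**
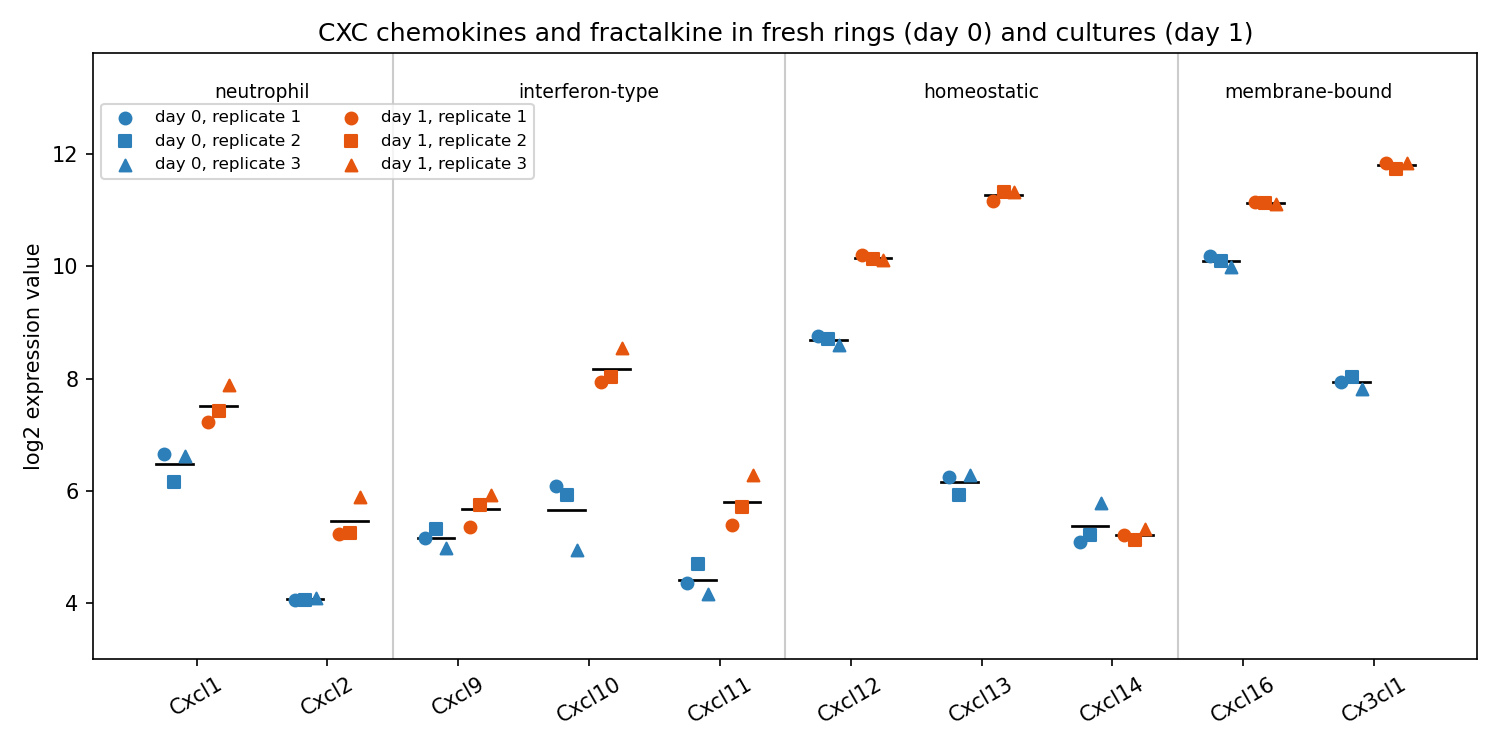
Log2 expression value of each ligand gene (vertical axis) on each array, with day 0 in blue, day 1 in orange, a marker shape for each replicate number and a black line at the mean of the day. Cxcl13 and Cx3cl1 have the widest gaps between days, Cxcl14 overlaps, and levels of different genes are not comparable.

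Cxcl1, known in rat as CINC-1, stood at 6.66, 6.16 and 6.63 on day 0. On day 1 it stood at 7.23, 7.42 and 7.88. All day 1 arrays lay above all day 0 arrays, by at least 0.57, and the change was 1.03 ± 0.19 (adjusted p = 0.00263). Cxcl2, known as MIP-2, stood at 4.06, 4.06 and 4.09 on day 0 and at 5.23, 5.26 and 5.90 on day 1. The day 0 values of Cxcl2 lay under the lower quartile of their arrays, and its change was 1.39 ± 0.17 (adjusted p = 2.37e-04). The 95% confidence intervals of both changes overlapped, from 0.59 to 1.47 for Cxcl1 and from 1.01 to 1.78 for Cxcl2.

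Both genes lie side by side on chromosome 14, and the 250 bases before each start are shown because they hold the same kind of motif close to the start. They are RefSeq sequences of GRCr8 on the minus strand, chr14:17479322-17479571 for Cxcl1 and chr14:17467256-17467505 for Cxcl2, written 5′ to 3′ towards the start. Capitals mark matches to the NF-kappaB motif.
Cxcl1: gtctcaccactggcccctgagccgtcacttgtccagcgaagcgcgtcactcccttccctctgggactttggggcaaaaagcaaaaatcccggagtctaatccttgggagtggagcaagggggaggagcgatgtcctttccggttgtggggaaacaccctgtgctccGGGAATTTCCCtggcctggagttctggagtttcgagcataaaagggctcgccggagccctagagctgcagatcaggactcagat
Cxcl2: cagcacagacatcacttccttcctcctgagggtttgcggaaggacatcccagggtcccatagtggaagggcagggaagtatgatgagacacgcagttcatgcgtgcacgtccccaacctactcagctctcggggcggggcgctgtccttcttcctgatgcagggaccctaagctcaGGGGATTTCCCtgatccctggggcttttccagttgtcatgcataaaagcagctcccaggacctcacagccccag
In Cxcl1 the match spans -84 to -74 from the start and in Cxcl2 -74 to -64, where in each gene 2 overlapping matches merge into 1 run of capitals.

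The interferon-type ligands rose by different amounts. Cxcl10, formerly IP-10, stood at 6.08, 5.93 and 4.96 on day 0 and at 7.94, 8.03 and 8.55 on day 1. Its change of 2.52 ± 0.29 (adjusted p = 2.04e-04) was a 5.73-fold rise, although day 0 replicate 3 lay well under the other fresh rings. Without that array the change was 2.17. Cxcl11 stood at 4.35, 4.71 and 4.17 on day 0 and at 5.39, 5.71 and 6.28 on day 1, a change of 1.38 ± 0.22 (adjusted p = 0.00128). Its lowest day 0 value lay under the lower quartile of that array. Cxcl9, formerly Mig, stood at 5.17, 5.32 and 4.98 on day 0 and at 5.36, 5.75 and 5.93 on day 1. The lowest day 1 array of Cxcl9 exceeded the highest day 0 array by 0.04, and the change was 0.52 ± 0.15 (adjusted p = 0.0217). The call for Cxcl9 was lost when any 1 of 4 arrays was left out, namely day 0 replicate 1 (adjusted p = 0.0508) or 3 (0.0711) and day 1 replicate 2 (0.0644) or 3 (0.0688).

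Cxcl11, Cxcl10 and Cxcl9 follow each other on chromosome 14. The upstream sequences of Cxcl10 and Cxcl11 are shown because they hold matches to several motifs, while that of Cxcl9 held none of the letters searched. They are from the plus strand of GRCr8, chr14:15988816-15989065 and chr14:15973478-15973727, and capitals mark matches to any of 5 motifs.
Cxcl10: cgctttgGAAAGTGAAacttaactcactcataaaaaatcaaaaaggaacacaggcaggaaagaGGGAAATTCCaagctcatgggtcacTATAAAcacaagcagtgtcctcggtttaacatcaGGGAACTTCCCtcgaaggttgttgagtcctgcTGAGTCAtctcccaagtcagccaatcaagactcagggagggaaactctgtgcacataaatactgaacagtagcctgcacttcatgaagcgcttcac
Cxcl11: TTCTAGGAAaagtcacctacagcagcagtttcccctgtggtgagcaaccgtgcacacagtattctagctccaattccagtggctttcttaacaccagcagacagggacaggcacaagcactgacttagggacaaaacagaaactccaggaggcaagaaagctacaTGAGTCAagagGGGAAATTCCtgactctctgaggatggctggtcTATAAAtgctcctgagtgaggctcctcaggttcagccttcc
From left to right, the capitals of Cxcl10 are an ISRE core (GAAANNGAA) at -243 to -235, an NF-kappaB match at -187 to -178, a TATA box (TATAAA) at -162 to -157, an overlapping pair of NF-kappaB matches at -128 to -118 and an AP-1 motif (TGANTCA) at -96 to -90. Those of Cxcl11 are a GAS motif (TTCNNNGAA) at -250 to -242, an AP-1 motif at -85 to -79, an NF-kappaB match at -74 to -65 and a TATA box at -41 to -36.

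The homeostatic ligands covered the whole range of change. Cxcl12, the ligand that retains stem cells and draws endothelial cells through Cxcr4, stood at 8.75, 8.70 and 8.61 on day 0 and at 10.20, 10.12 and 10.11 on day 1. The arrays of each day lay close together, and the change was 1.46 ± 0.07 (adjusted p = 1.15e-06), a 2.75-fold rise. Cxcl13 stood at 6.24, 5.92 and 6.29 on day 0 and at 11.17, 11.33 and 11.33 on day 1. Its days were parted by 4.88, more than those of any other ligand here, and the 95% confidence interval of its change, 4.88 to 5.37, lay above those of the other 9 ligands. Cxcl14, a ligand made by epithelium and fibroblasts, stood at 5.10, 5.22 and 5.78 on day 0 and at 5.21, 5.13 and 5.32 on day 1. Its day 1 values lay within the day 0 range, and the change of -0.15 ± 0.17 (adjusted p = 0.503) had a 95% confidence interval from -0.53 to 0.24. Without day 0 replicate 3, its highest array, the value turned to 0.060 (adjusted p = 0.620). The interval over all 6 arrays excludes a 2-fold rise or fall.

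The upstream sequence of Cxcl13, on the minus strand of GRCr8 at chr14:13917921-13918170, is shown because this gene rose most. Its capitals, a TATA box at -33 to -28, were the only match among the motifs searched.
Cxcl13: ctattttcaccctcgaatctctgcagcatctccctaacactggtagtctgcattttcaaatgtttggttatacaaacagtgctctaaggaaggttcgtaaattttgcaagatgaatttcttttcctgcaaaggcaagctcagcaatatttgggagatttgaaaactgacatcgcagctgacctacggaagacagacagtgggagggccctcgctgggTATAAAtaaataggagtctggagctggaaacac

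Both membrane-bound ligands rose with little spread between arrays. Cx3cl1, which endothelium and smooth muscle can present to monocytes, stood at 7.93, 8.04 and 7.82 on day 0 and at 11.83, 11.73 and 11.85 on day 1. The days were parted by 3.69, and the change was 3.87 ± 0.08 (adjusted p = 4.35e-08). Cxcl16, which also binds oxidised lipoprotein, stood at 10.18, 10.10 and 9.99 on day 0 and at 11.15, 11.13 and 11.10 on day 1. Its change of 1.03 ± 0.07 (adjusted p = 8.40e-06) was a 2.05-fold rise, close in size to that of Cxcl1 but with a smaller standard error.

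**Figure D2:**
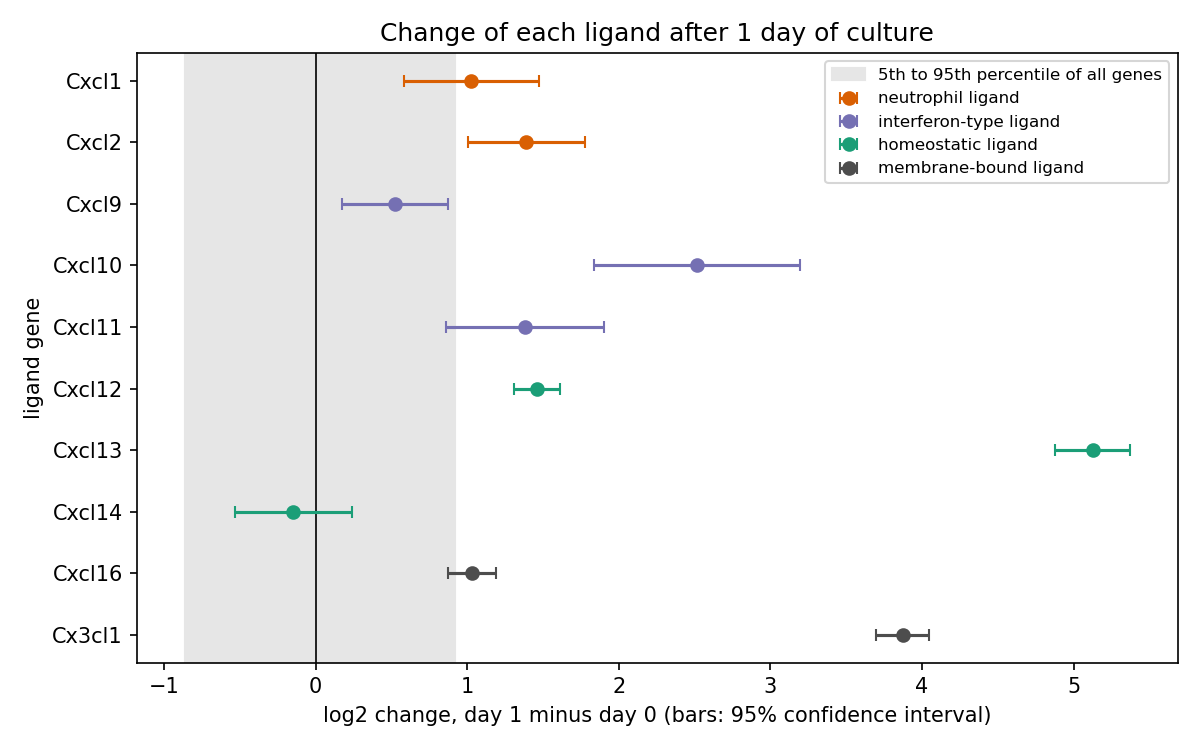
Log2 change of each ligand (points, coloured by class) with its 95% confidence interval, beside the grey band that holds the 5th to 95th percentile of all genes (-0.86 to 0.92). Cxcl9 and Cxcl14 lie inside the band and Cxcl13 lies farthest out.

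The 10 ligands differed in how evenly the cultures expressed them. On day 1 the SD of the 5 neutrophil and interferon-type ligands ran from 0.29 to 0.45 (n = 3), and all 5 lay above 0.24, the 95th percentile of the day 1 SD over all genes. The SD of the other 5 ligands ran from 0.02 to 0.10 (n = 3), beside a median of 0.09 over all genes. Fresh rings did not part the classes in this way. There the SD of Cxcl1 (0.28), Cxcl10 (0.61), Cxcl11 (0.27) and Cxcl14 (0.37) lay above 0.26, the day 0 95th percentile over all genes. Those of Cxcl2 (0.02) and Cxcl9 (0.17) lay under it. The ligands also differed in level, with day 1 means of 5.46 to 8.17 for the 5 neutrophil and interferon-type ligands. Those of Cxcl12, Cxcl13, Cxcl16 and Cx3cl1 ran from 10.14 to 11.80, and that of Cxcl14 was 5.22. SDs were not compared at like levels, and the part of level in the spread was not tested. Day 1 replicate 3 was the highest and day 1 replicate 1 the lowest array for each of Cxcl1, Cxcl2, Cxcl9, Cxcl10 and Cxcl11. Their 5 SDs thus share the same extreme arrays and are not 5 separate observations. Replicate 3 was the highest day 1 array for 29.2% of all genes. The cytokine gene Il6 stood at 5.71, 5.65 and 7.38 on day 1, highest in the same replicate. Il1b (5.66, 5.52 and 6.72) and Tnf (6.23, 6.04 and 6.61), named after their values were seen, were also highest there. The part of those cytokines in the spread was not tested. Without day 1 replicate 3 the changes were 0.84 for Cxcl1, 1.17 for Cxcl2, 2.33 for Cxcl10 and 1.14 for Cxcl11, all past the threshold, while Cxcl9, at 0.40 (adjusted p = 0.0688), no longer passed. In fresh rings, Cxcl9, Cxcl10 and Cxcl11 were all lowest in day 0 replicate 3, which was the lowest day 0 array for 35.9% of all genes.

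**Figure D3:**
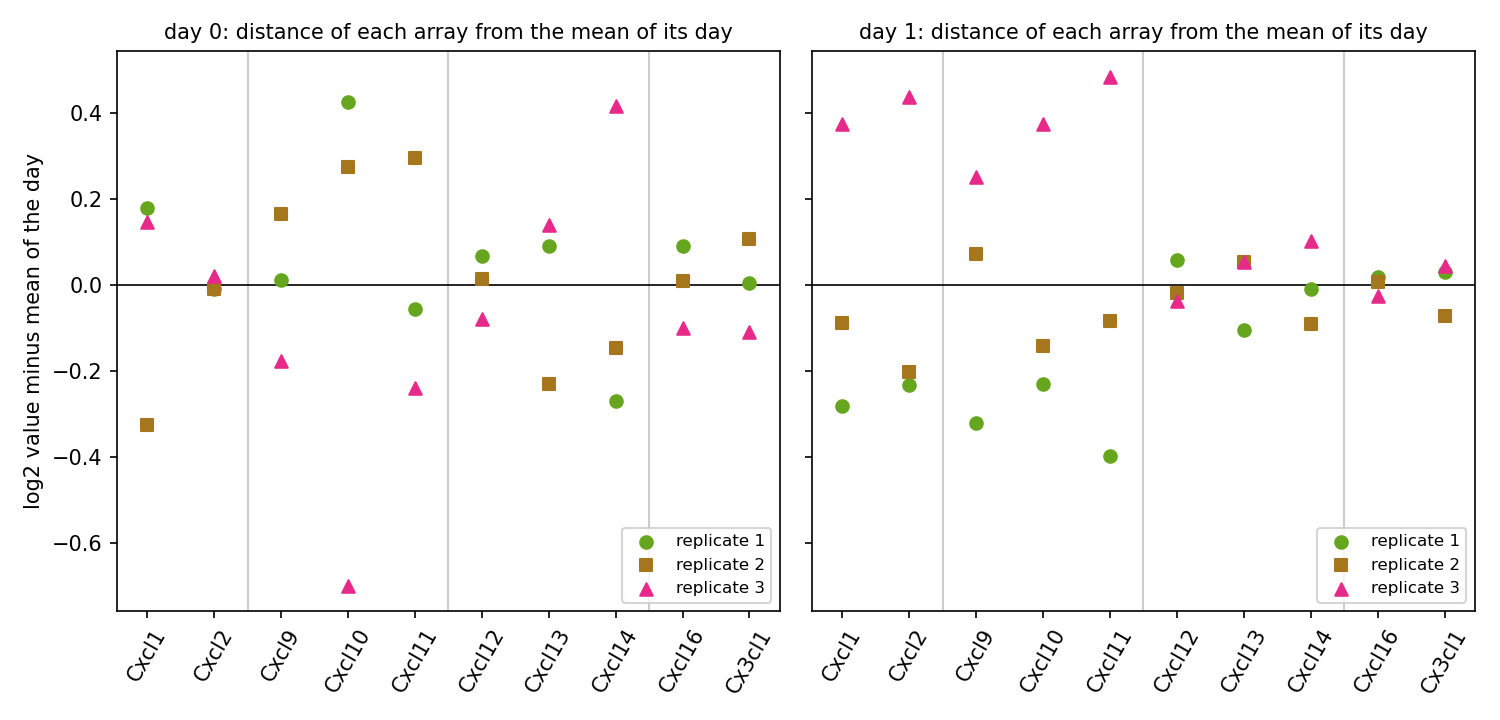
Distance of each array from the mean of its day (log2, vertical axis) for each ligand, day 0 at left and day 1 at right, with 1 marker per replicate. On day 1 the pink triangles of replicate 3 lie 0.25 to 0.48 above the mean for the first 5 ligands and at most 0.10 from it for the other 5.

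The NF-kappaB motif was found, on either strand of the 250 bases, in 4 of the 10 ligand genes, Cxcl1, Cxcl2, Cxcl10 and Cxcl11. It was found in 6.41% of the 27457 RefSeq windows of that length. The ISRE core was found in Cxcl10 (7.99% of all windows), the GAS motif in Cxcl11 (7.52%) and the AP-1 motif in Cxcl10, Cxcl11 and Cxcl14 (6.36%). The TATA box was found in Cxcl10, Cxcl11, Cxcl13 and Cx3cl1, and in 13.1% of all windows. In the windows of Cxcl9, Cxcl12 and Cxcl16 none of these letters was found. A match is a run of letters and not a measured binding site.

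**Figure D4:**
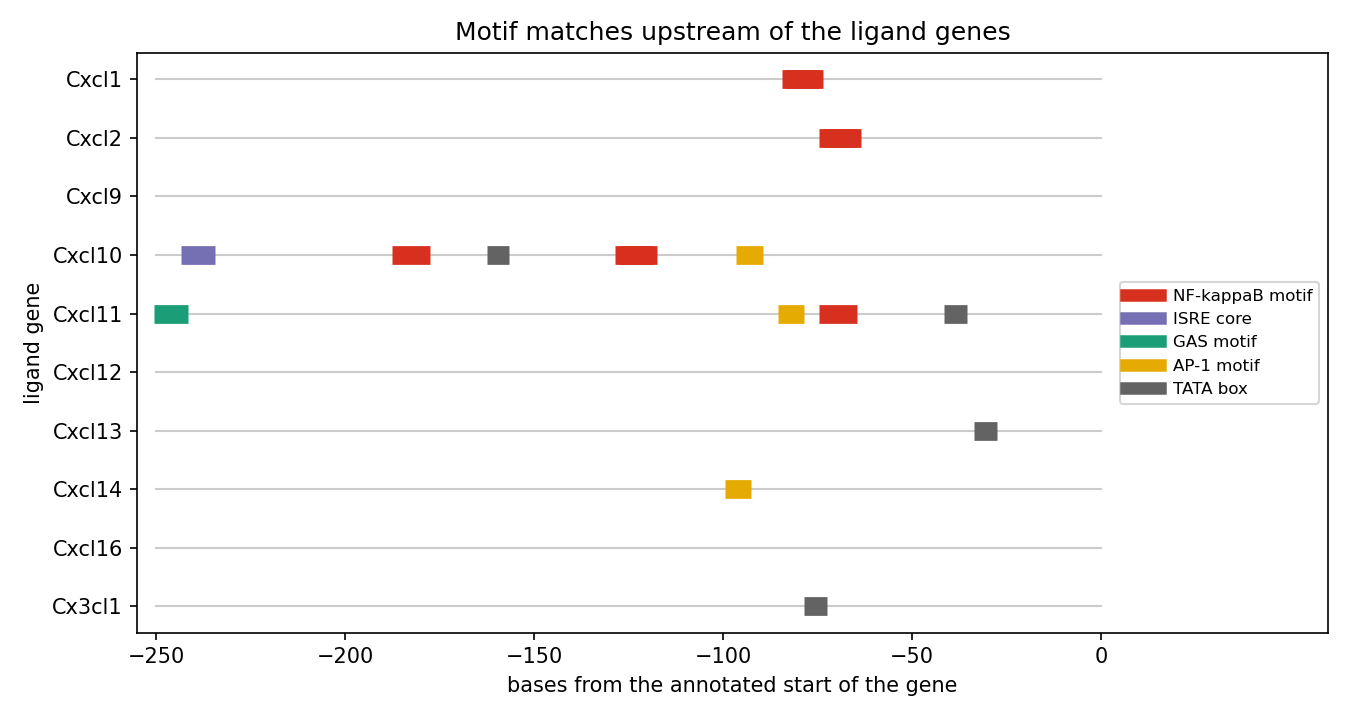
Position of each motif match (coloured bars) in the 250 bases before the annotated start of each ligand gene, with 0 at the start. Red bars, the NF-kappaB motif, stand in Cxcl1, Cxcl2, Cxcl10 and Cxcl11 alone among the 10 genes.

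Of the measured genes beside the ligands on the chromosome, other than the ligands themselves, some passed the test and some did not. Mthfd2l, beside Cxcl2, was at 0.23 ± 0.12 (adjusted p = 0.170). Art3, the gene before Cxcl11, fell by 0.34 ± 0.08 (adjusted p = 0.0110, but 0.0542 with quantile normalization), and Sdad1, after Cxcl9, rose by 0.63 ± 0.08 (adjusted p = 2.44e-04). Cx3cl1 lies between the CC chemokine genes Ccl17, at 0.07 ± 0.11 (adjusted p = 0.663), and Ccl22, which rose by 0.49 ± 0.17 (adjusted p = 0.0397). The call for Ccl22 was lost without either of day 0 replicates 1 and 3 or of day 1 replicates 1 and 2 (adjusted p from 0.0617 to 0.119). Cnot6l, beside Cxcl13, was at 0.16 ± 0.06 (adjusted p = 0.0669, and from 0.0153 to 0.0394 in 4 alternatives) next to the 5.13 of that ligand. On either side of Cxcl16, Zmynd15 rose by 0.49 ± 0.10 (adjusted p = 0.00393) and Med11 by 0.20 ± 0.07 (adjusted p = 0.0411). The call for Med11 was lost under 9 alternatives, with adjusted p from 0.0603 to 0.123, among them leaving out any 1 array other than day 1 replicate 1. Neurog1, beside Cxcl14, was at -0.25 ± 0.12 (adjusted p = 0.118), and passed with day 0 replicate 1 left out (-0.37, adjusted p = 0.0106).

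Of the other CXC ligand genes 5 of 6 were measured, and 2 rose and 1 fell (27.6% and 20.7% of all genes). Pf4, a platelet ligand that macrophages also make, rose by 1.05 ± 0.07 (adjusted p = 8.94e-06). Cxcl3, another ELR ligand, rose by 0.63 ± 0.18 (adjusted p = 0.0220), with arrays that overlapped between days and lay under the lower quartile in 4 of 6 cases. The call for Cxcl3 was lost without any 1 of day 0 replicates 1 and 3 and day 1 replicates 1 and 3. Ppbp, also of platelets, fell by 0.27 ± 0.07 (adjusted p = 0.0125), a call lost with quantile normalization (adjusted p = 0.0659) and with an intensity trend (adjusted p = 0.0536). Cxcl6 (0.10 ± 0.17, adjusted p = 0.648) and Cxcl17 (0.02 ± 0.08, adjusted p = 0.874) did not pass. The median change of the 5 was 0.10.

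All 7 receptors of these ligand families were measured, and 2 rose and 3 fell, with a median change of -0.21. Among all genes 27.6% rose and 20.7% fell by the same test. Cxcr4, the receptor of Cxcl12, stood at 6.07, 6.47 and 6.26 on day 0 and at 9.31, 9.16 and 9.41 on day 1. It rose together with its ligand, by 3.03 ± 0.11 (adjusted p = 4.29e-07), an 8.15-fold change. Cx3cr1, the receptor of Cx3cl1 on monocytes and macrophages, stood at 7.16, 7.09 and 6.98 on day 0 and at 5.98, 6.17 and 5.87 on day 1. It fell by 1.07 ± 0.09 (adjusted p = 3.28e-05) while its ligand rose. Cxcr5, the receptor of Cxcl13, rose by 0.54 ± 0.15 (adjusted p = 0.0159). That call was lost without day 1 replicate 2 (adjusted p = 0.0542). Cxcr6, the receptor of Cxcl16, fell by 0.43 ± 0.07 (adjusted p = 0.00116).

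Cxcr3, which the 3 interferon-type ligands share, fell by 0.21 ± 0.06 (adjusted p = 0.0184). The call for Cxcr3 was lost with quantile normalization (-0.12, adjusted p = 0.132), with median centring (adjusted p = 0.0687), with an intensity trend (adjusted p = 0.113) and when replicate 2 of day 0 (adjusted p = 0.0580) or of day 1 (adjusted p = 0.0618) was left out. The neutrophil receptors did not pass. Cxcr2 was at -0.27 ± 0.14 (adjusted p = 0.162) and lay under the lower quartile on all 6 arrays, and Cxcr1 was at -0.05 ± 0.13 (adjusted p = 0.775). Leaving out day 1 replicate 1 brought Cxcr2 to -0.40 (adjusted p = 0.0437).

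Of 5 genes listed as atypical chemokine receptors, 3 were measured. Ackr2, which takes up CC chemokines, fell by 0.39 ± 0.08 (adjusted p = 0.00551). Ackr3, which binds Cxcl12 and Cxcl11, was at -0.11 ± 0.06 (adjusted p = 0.144). Ackr3 passed with quantile normalization (-0.23, adjusted p = 0.00888) and with an intensity trend (adjusted p = 0.0292). Ccrl2 was at 0.19 ± 0.09 (adjusted p = 0.0999). With day 1 replicate 1 left out it passed, at 0.26 (adjusted p = 0.0455).

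**Figure D5:**
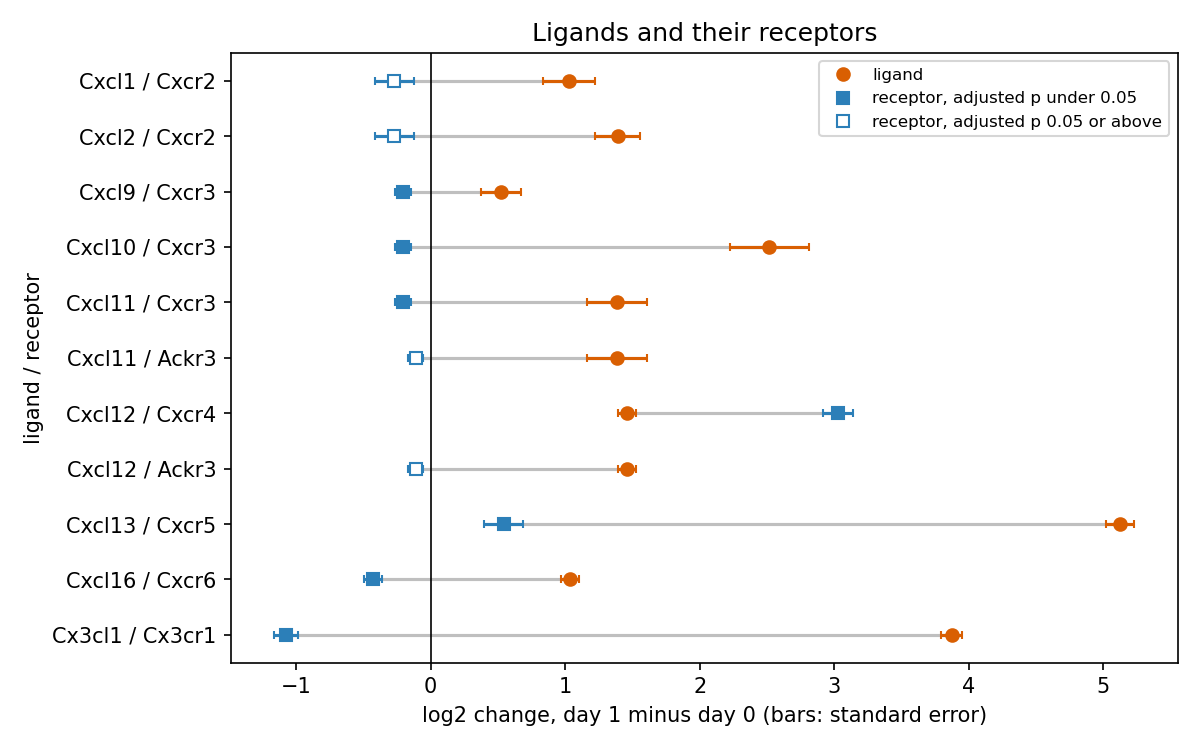
Log2 change (day 1 minus day 0, bars are standard errors) of each ligand (circles) and of a receptor it binds (squares, open where the adjusted p was 0.05 or above), 1 row per pair. Ligand and receptor rose together for Cxcl12 with Cxcr4 and Cxcl13 with Cxcr5, and Cx3cr1 lies farthest to the left.

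Genes that process or hold the ligands changed in both directions, as did all genes (27.6% higher and 20.7% lower). Of 11 proteases measured, 7 rose and 1 fell (median change 0.43). Mmp14, a membrane metalloproteinase, rose by 1.05 ± 0.07 and the lysosomal protease gene Ctss by 0.94 ± 0.07. Mmp12, the macrophage elastase, rose by 0.89 ± 0.16. Dpp4, a surface peptidase that trims Cxcl10, Cxcl11 and Cxcl12, fell by 1.01 ± 0.09. Mmp12 and Dpp4 each lay under the lower quartile on 1 array. Adam17, a sheddase of Cx3cl1, was at 0.09 ± 0.07 (adjusted p = 0.301), and Adam10 was not analysed here. Of 15 heparan sulfate carriers and enzymes, 7 rose and 3 fell (median change 0.05). Among them the heparanase gene Hpse rose by 1.70 ± 0.09 and the sulfotransferase genes Hs2st1 and Hs6st1 by 1.11 ± 0.06 and 1.01 ± 0.12, while the chain polymerase gene Ext1 fell by 1.01 ± 0.06.

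Genes of the pathways that can induce these ligands mostly rose or did not pass. The counts below stand beside 27.6% of all genes that passed as higher on day 1 and 20.7% as lower. Of 12 NF-kappaB pathway genes (subunits, inhibitors and related proteins, and the kinase complex genes Ikbkb, Ikbke, Chuk and Ikbkg) 7 rose and 5 did not pass (median change 0.44). The largest were Nfkbiz at 1.20 ± 0.08, Nfkb2 at 1.06 ± 0.08, Nfkbie at 0.78 ± 0.07 and Nfkbib at 0.78 ± 0.06. Of 15 interferon ligands, receptors and factors 8 rose and 1 fell (median change 0.46). The transcription factor gene Irf7 rose by 1.84 ± 0.09, the receptor gene Ifnar1 by 1.12 ± 0.08, Jak2 by 1.08 ± 0.11 and Stat2 by 1.00 ± 0.09. The 1 that fell, the interferon gene Ifnb1, lay under the lower quartile on all 6 arrays, so the size of its fall is not given. Of 15 inducing cytokines and receptors 9 rose and 1 fell (median change 0.63). Il6 rose by 2.96 ± 0.42, measured against day 0 values that lay under the lower quartile on all 3 arrays. The receptor genes Il1r1, Il17ra and Tnfrsf1a rose by 2.74 ± 0.07, 1.77 ± 0.08 and 1.29 ± 0.07. The lymphotoxin gene Ltb, a classical inducer of Cxcl13, fell by 0.33 ± 0.10 (adjusted p = 0.0276). The call for Ltb was lost with quantile normalization (adjusted p = 0.0871) and in 5 of the 6 fits that left out an array, all but that without day 1 replicate 1.

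Cxcl13 is known from the stroma of lymphoid follicles, and other genes of such stroma were read beside it. Of 11 measured, 5 rose and 1 fell (27.6% and 20.7% of all genes), with a median change of -0.04. Podoplanin (Pdpn) rose by 2.84 ± 0.06 and the adhesion molecule genes Icam1 and Vcam1 by 1.59 ± 0.08 and 1.14 ± 0.06. The other risers, Nfkb2 and Ltbr, were also counted in the pathway lists above. The chemokine genes Ccl19, at -0.12 ± 0.17 (adjusted p = 0.597), and Ccl21, at -0.30 ± 0.18 (adjusted p = 0.22), did not pass. Neither did Madcam1, Tnfsf11 and Il7. The B cell factor gene Tnfsf13b fell by 0.29 ± 0.08 (adjusted p = 0.0163), a call lost when day 1 replicate 3 was left out (adjusted p = 0.0562).

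Markers of the cells that could make or answer these ligands also differed between days, and their part in the ligand changes was not tested. In bulk RNA, fewer cells of a type and less RNA per cell cannot be told apart. The marker counts stand beside 27.6% of all genes that rose and 20.7% that fell. The 8 smooth muscle markers, whose mean log2 level was 11.39 to 11.47 on day 0, all fell, to 8.54 to 8.66. Of 8 endothelial markers 6 rose and 2 fell (mean level 8.20 to 8.40 and 8.53 to 8.63). Of 10 fibroblast markers 3 rose and 6 fell (11.72 to 11.81 and 11.30 to 11.39), and of 12 macrophage markers 3 rose and 4 fell (7.85 to 7.94 and 7.78 to 7.94). Cd68 was at 1.70 ± 0.06 and Lyve1 at -2.05 ± 0.08. By limma 0 of 12 neutrophil markers passed, and 3 had an unadjusted p under 0.05. Their mean level was 4.33 to 4.48 on day 0 and 4.20 to 4.30 on day 1, near the lower quartile of 4.27 to 4.39 of the arrays. Of 12 T and NK cell markers 3 fell, Cd2, Cd4 and Gzmb, and of 7 markers of B cells and follicular dendritic cells 1, Blk, rose. Mean levels were 4.90 to 5.05 and 4.75 to 4.77 for the former, and 4.43 to 4.56 and 4.49 to 4.67 for the latter. Cd4, at 8.77 on day 0 and 8.25 on day 1, had the highest values of the 12. The T cell receptor complex genes Cd3e, Cd3d and Cd3g did not pass, and lay under the lower quartile on 5, 5 and 6 arrays. Of 9 adipocyte markers 7 fell, of 7 dendritic cell markers 2 fell, of 7 mast cell markers 1 rose and 3 fell, and of 3 platelet markers 1 rose and 1 fell. The platelet list holds Pf4 and Ppbp, and the endothelial markers Pecam1, Kdr and Vwf were not analysed here. By limma 0 of 5 mesothelial markers passed, and 0 had an unadjusted p under 0.05.

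For the ligand with the largest change in each class, the genes with the most similar values over the 6 arrays were sought by the root mean square difference after centring each gene. For Cxcl2 they were Clec4d (0.14), Clec2dl1 (0.14) and Aldh1a3 (0.15). For Cxcl10 they were Myc (0.23), Brinp1 (0.24) and the interferon-induced gene Mx1 (0.28). For Cxcl13 they were Slc7a11 (0.18), Akr1b8 (0.23) and Slc14a1 (0.24), and for Cx3cl1 Mt2A (0.05), Gadd45a (0.10) and Gpnmb (0.11). With 6 arrays in 2 groups, this measure is set mostly by the size of the day difference.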

How the data were processed

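The authors deposited log2 expression values per transcript cluster, with 27342 rows; that the scale is log2 follows from their range, up to 14.16. Per the labels' protocols, 200 ng of total RNA per array was labelled with biotin for a whole-transcript array. Limma is the tool that the submitters' processing notes list. Background correction, normalization and build: not given in the sources used here. The 6 medians ran from 5.87 to 5.95, and values were used as deposited. The quartiles differed by day. The lower quartile was 4.32 to 4.39 on day 0 and 4.27 to 4.29 on day 1. The upper quartile was 7.83 to 7.87 on day 0 and 7.93 to 7.95 on day 1. Small changes can therefore depend on the normalization. Rows with exactly 1 symbol (15097) were kept, symbols were updated by gene ID or accession, and the row with the highest mean stood for a gene. The 323 rows with several symbols and 11922 with none entered only when every row was a feature. The test of day was limma's (version 3.58.1, R 4.3.3; two-sided moderated test, Benjamini-Hochberg over 14324 genes, threshold 0.05, no filter). Arrays limit precision by their number, and whether rings of 1 animal went into several pools is not stated. A p-value rests on the spread among the 3 pools within each day, taken over both days. Limma moderates that spread towards a value drawn from all genes. The spread among pools may be technical.

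Members, lists and tests were chosen with earlier results of these data known. Named are all ligands and receptors, up to 4 called genes per pathway list, genes beside small counts, marker examples, the nearest genes by position and by pattern. Motifs were searched on both strands of RefSeq windows (GRCr8), the 250 bases before each start, without the transcribed part. The NF-kappaB motif is named without letters because it uses ambiguity codes. Protein features planned for the ligands were not computed, as no protein sequences were used here. The fit was tested on simulated data. Python 3.11.15 with pandas 2.3.3 and numpy 2.4.6 prepared tables, and matplotlib 3.10.9 the figures. Alternatives were other normalizations, filters, row choices, priors, array weights, a block for replicate number, and leaving out each array in turn.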

Additional observations from a re-analysis of the deposited data

How the results depend on the processing

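The 9 rising ligands kept their direction under every alternative run, and calls changed for Cxcl9 alone, in 4 of the 6 fits that left out an array. Of 155 comparisons of a ligand with its alternative, 150 kept direction and side of the threshold. With each array left out, 8 to 9 ligands passed, among 6166 to 6506 genes in all. Quantile normalization called 6496 genes and median centring 6779, each with 9 ligands. Without the dimmest 25% of genes Cxcl2 was not tested and 8 of 9 ligands passed; without genes under the median mean 6 of 6 passed. No called value of the 9 rising ligands moved by over 1.5 times. Values that changed sign, none past the threshold, were those of Cxcl14 without day 0 replicate 3 (0.060, range with each array left out -0.28 to 0.060), Cxcr1 with quantile normalization (0.032) and without day 0 replicate 2 or day 1 replicate 1 (range -0.13 to 0.095), Cxcl6 without the same arrays (range -0.074 to 0.20), Cxcl17 without day 1 replicate 2 (range -0.058 to 0.065) and Ccl17 without day 0 replicate 1 (range -0.024 to 0.18). The cause was not tested. Same-numbered arrays did not deviate together (correlations 0.01, 0.02 and 0.04 over genes), so the numbers were not used as pairs; with the replicate block 6686 genes and 9 ligands passed, Cxcl3 missed the threshold (adjusted p = 0.0617) and Cxcr2 passed it (adjusted p = 0.0207).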
